A study of Mus musculus with 11 samples.

Results

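The subunits of the NADPH oxidases were followed across injured mouse arteries with and without Nrf3. They were taken by gene symbol as Cybb, Cyba, Ncf1, Ncf4, Rac1, Rac2, Nox1, Nox4 and Noxo1, which are 9 of the 48897 genes in the deposited count table. All 9 passed the filter on low counts that left 21343 genes tested. Polyadenylated RNA had been sequenced on day 7 after injury in 4 groups. These were femoral arteries of Nrf3 knockout mice after wire injury (3 libraries), femoral arteries of floxed control mice after the same injury (3), carotid arteries of Nrf3 knockout mice after ligation (2) and carotid arteries of floxed control mice after ligation (3). Each vessel had its own injury, so vessel and injury model cannot be told apart, and every library came from an injured artery. The labels give no strain, age or sex, do not name the cells in which the gene was deleted, and do not state whether each library is a different animal. The p-values therefore rest on the spread among these libraries, which could be technical.

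NADPH oxidases pass electrons from NADPH across a membrane to oxygen and so make superoxide or hydrogen peroxide. In phagocytes the catalytic gp91phox (Cybb) sits in the membrane with p22phox (Cyba), and it is silent until cytosolic partners such as p47phox (Ncf1), p40phox (Ncf4) and the GTPase Rac2 are recruited from the cytosol. Vascular smooth muscle is known for Nox4, which needs Cyba but no cytosolic subunit and is regarded as always active, and for Nox1, which is best known from the colon and uses the organizer Noxo1, with Rac1 as its GTPase. Cyba is therefore shared by the phagocyte enzyme, Nox1 and Nox4, while Cybb, Ncf1, Ncf4 and Rac2 are mainly genes of leukocytes.

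The members lie on 6 chromosomes. In GRCm38 coordinates Cybb is at chrX:9435252-9487766 and Nox1 at chrX:134086421-134137711, both on the minus strand. Ncf1 is at chr5:134220053-134229625 and Rac1 at chr5:143505481-143528117, also on the minus strand. Ncf4 at chr15:78244164-78262582 on the plus strand and Rac2 at chr15:78559169-78572783 on the minus strand are near each other. Cyba is at chr8:122424771-122432940 on the minus strand, Nox4 at chr7:87246405-87398710 on the plus strand and Noxo1 at chr17:24696234-24700530 on the plus strand. RefSeq promoter windows of GRCm38.p6, from 250 bases before to 50 bases after a start site, were held for 6 of the 9 members, namely Cybb, Cyba, Ncf1, Nox1, Nox4 and Noxo1. The start sites used for Cybb, Nox1 and Nox4 lie inside the spans given above. The windows of Cybb and Ncf1 are printed because both genes were high in the same libraries, and that of Nox4 as the contrast. Each runs 5′ to 3′ on the gene's own strand, and capitals mark matches to the motifs named after them.
Cybb (chrX:9469275-9469574, minus strand): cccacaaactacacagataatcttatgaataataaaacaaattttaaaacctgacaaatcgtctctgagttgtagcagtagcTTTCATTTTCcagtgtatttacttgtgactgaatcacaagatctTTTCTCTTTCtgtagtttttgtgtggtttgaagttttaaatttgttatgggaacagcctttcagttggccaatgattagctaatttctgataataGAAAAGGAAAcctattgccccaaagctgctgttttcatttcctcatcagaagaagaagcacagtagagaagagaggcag
Ncf1 (chr5:134229576-134229875, minus strand): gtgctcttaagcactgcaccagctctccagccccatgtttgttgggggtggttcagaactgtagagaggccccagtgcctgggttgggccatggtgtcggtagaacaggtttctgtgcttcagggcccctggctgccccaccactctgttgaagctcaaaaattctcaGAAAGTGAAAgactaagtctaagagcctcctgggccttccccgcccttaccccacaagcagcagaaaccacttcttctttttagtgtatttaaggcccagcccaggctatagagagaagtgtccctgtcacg
Nox4 (chr7:87246399-87246698, plus strand): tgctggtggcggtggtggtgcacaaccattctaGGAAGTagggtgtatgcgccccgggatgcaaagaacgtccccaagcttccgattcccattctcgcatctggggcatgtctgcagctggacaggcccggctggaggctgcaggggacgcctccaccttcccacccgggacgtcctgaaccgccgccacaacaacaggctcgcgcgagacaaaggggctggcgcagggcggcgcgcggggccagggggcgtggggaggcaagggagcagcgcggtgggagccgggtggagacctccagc
The core of the interferon-stimulated response element, which is GAAA, then 2 bases of any kind, then GAAA, searched on both strands like the other motifs, was found 3 times in the Cybb window, with first bases at -168, -124 and -29 from the start site, and once in the Ncf1 window, at -82. Of 32851 promoter windows of the same length, 3.4% held this core. The Cyba window, of a gene that was also higher in every femoral knockout library, had no such match, and neither had those of Nox1, Noxo1 and Nox4. The Nox4 window held 1 match to the ETS core GGAAGT, at -217, which 23.8% of windows hold. The PU.1 site GAGGAAG, which can overlap an ETS core on the genome, matched once, at -23 in the Nox1 window, and is held by 13.6% of windows. The core of the antioxidant response element, TGACNNNGC, which is held by 12.4% of windows, and the CArG box, held by 1.6%, had no match in any of the 6. These matches describe the letters of the windows, and no binding was measured.

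The labels were checked on the deleted gene first. Nfe2l3, the symbol of Nrf3, had 11, 2 and 0 counts in femoral knockout libraries, against 48, 81 and 37 counts in femoral control libraries. It had 9 and 8 counts in carotid knockout libraries, against 57, 75 and 85 counts in carotid control libraries. The knockout libraries were thus the low ones in both vessels, and Nfe2l3 fell in the femoral artery by 3.50 ± 0.78 on the log2 scale (SE, n = 3 each, edgeR quasi-likelihood, adjusted p = 0.0472) with a change of -2.97 ± 0.86 in the carotid artery (adjusted p = 0.142). The femoral call was lost in 12 of 21 alternatives, with the log2 change between -5.48 and -2.90. Another gene, Trim5, was low in the same libraries, with 21, 18 and 19 counts in femoral knockout libraries, against 488, 326 and 369 in femoral control libraries. It had 16 and 70 counts in carotid knockout libraries, against 402, 436 and 420 in carotid control libraries. Whether knockout and control mice differ at further loci was not tested. The Y-linked gene Ddx3y had 4658 to 5469 counts per library. Library totals were between 43698644 and 55998563 counts, and levels are given as CPM, the counts scaled to library size after TMM normalization. A count of 0 allows up to 3 counts. All tests come from 1 edgeR fit of the 11 libraries with Benjamini-Hochberg adjustment over the 21343 genes, errors of log2 changes are SE, and a gene was said to rise or fall at an adjusted p under 0.05.

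The phagocyte subunits were higher in every femoral knockout library than in any femoral control library, and Ncf1, Ncf4 and Rac2 rose 2.49-fold, 2.40-fold and 2.03-fold. Cybb and Cyba, 2.13-fold and 1.56-fold higher on average, did not pass the adjusted test, and neither Rac1, Nox1, Nox4 nor Noxo1 did. Over all genes tested, 1.84% were higher at this threshold in the femoral artery beside 3 of the 9 members. In whole arteries, more cells of a type and more RNA per cell cannot be told apart.

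Cybb, the catalytic subunit, stood at 257, 241 and 145 CPM in femoral knockout libraries, against 128, 96.1 and 77.6 CPM in femoral control libraries. Its lowest knockout library was thus above the highest control library, although knockout replicate 3 was nearer to the controls than to the other knockout libraries. The log2 change was 1.09 ± 0.30 (95% interval 0.42 to 1.76, adjusted p = 0.0812). Cyba, the membrane partner that stabilizes the catalytic subunit, had 179.8, 186 and 139 CPM in femoral knockout libraries, against 122, 113 and 90.3 CPM in femoral control libraries. These groups did not overlap either, and the change of 0.64 ± 0.15 had an adjusted p of 0.0503.

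Ncf1, the organizer that carries the cytosolic complex to the membrane, had the largest log2 change of the 9. It stood at 147, 135 and 79.0 CPM in femoral knockout libraries, against 54.8, 50.6 and 39.9 CPM in femoral control libraries. The rise was 1.32 ± 0.25 (95% interval 0.76 to 1.87, adjusted p = 0.0332). Ncf4, whose product binds phosphatidylinositol 3-phosphate on phagosomes, had 62.5, 59.6 and 34.6 CPM in femoral knockout libraries, against 27.4, 21.8 and 16.0 CPM in femoral control libraries. It rose by 1.27 ± 0.25 (adjusted p = 0.036). Knockout replicate 3 was again the lowest of its group and still above all 3 controls.

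The GTPases differed from each other. Rac2, the form restricted largely to blood cells, had 95.4, 96.2 and 63.3 CPM in femoral knockout libraries, against 49.8, 42.6 and 33.4 CPM in femoral control libraries. It rose by 1.02 ± 0.21 (adjusted p = 0.0364), with no overlap between the groups. Rac1, the form present in most cells, had 349, 342 and 400.5 CPM in femoral knockout libraries, against 363, 358 and 330.5 CPM in femoral control libraries. These groups overlapped and the change was 0.05 ± 0.09 (95% interval -0.16 to 0.26, adjusted p = 0.812).

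Of the non-phagocyte enzymes, Nox4, the constitutive oxidase of smooth muscle and fibroblasts, had 51.1, 70.9 and 70.3 CPM in femoral knockout libraries, against 81.0, 64.9 and 81.9 CPM in femoral control libraries. The ranges overlapped, and the change of -0.24 ± 0.15 had a 95% interval of -0.58 to 0.10 (adjusted p = 0.425). Nox1 had 1.16, 1.78 and 1.06 CPM in femoral knockout libraries, against 1.53, 2.03 and 1.27 CPM in femoral control libraries, with a change of -0.27 ± 0.34 (adjusted p = 0.721). Noxo1, its organizer, had 2.94, 3.16 and 2.40 CPM in femoral knockout libraries, against 2.97, 1.95 and 2.70 CPM in femoral control libraries, with a change of 0.16 ± 0.25 (adjusted p = 0.793). Both low genes overlapped between the groups.

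**Figure D1:**
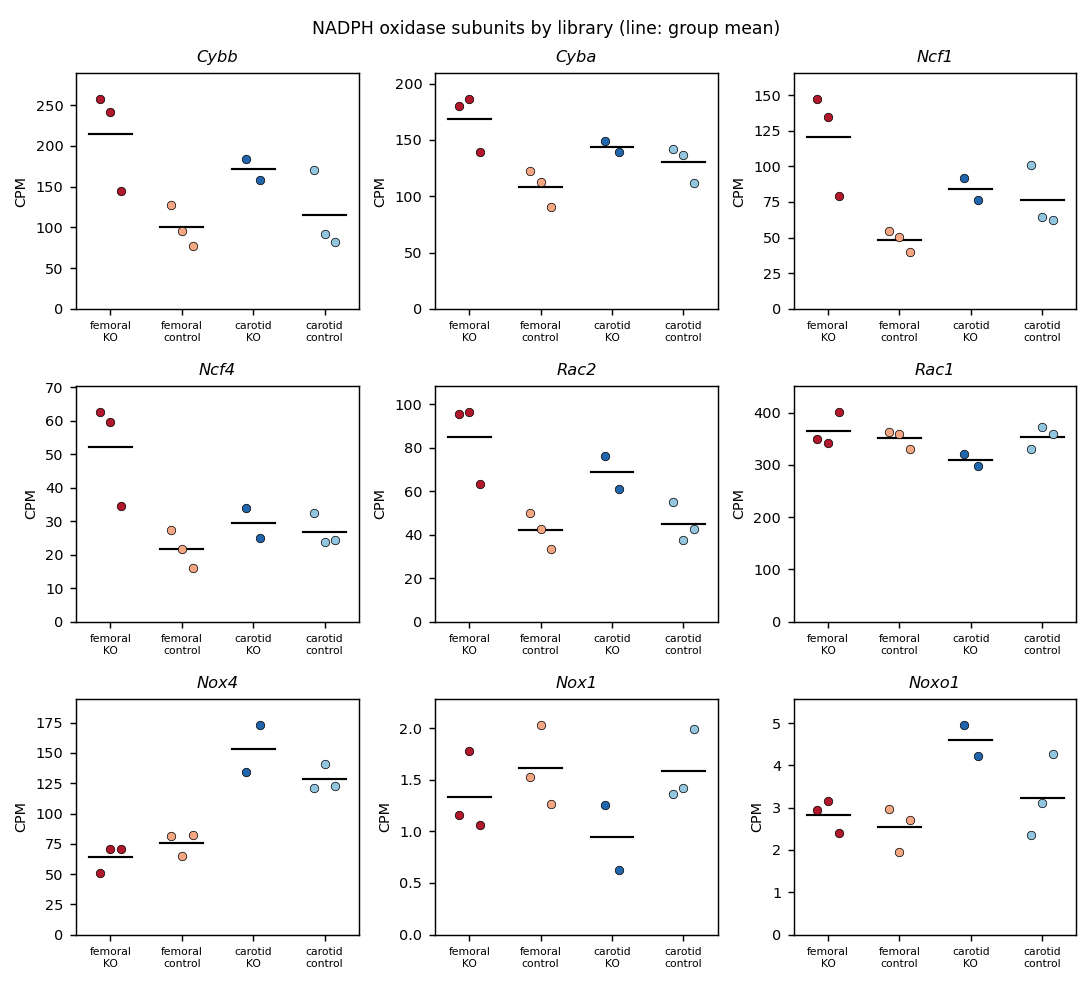
CPM level of each of the 9 members (linear axis from 0, 1 point per library, line at the group mean) in femoral knockout (KO), femoral control, carotid knockout and carotid control arteries. Cybb, Cyba, Ncf1, Ncf4 and Rac2 do not overlap between femoral knockout and femoral control libraries, Rac1 overlaps, and Nox4 is higher in each carotid library than in any femoral library.

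In all, 5 of the 9 members had all femoral knockout libraries above all femoral control libraries, beside 13.3% of all genes tested. The median log2 change of the 9 was 0.64, against -0.02 over all genes tested. Leaving out 1 library moved the number of called members in the femoral artery over a range of 0 to 5. It was 0 without knockout replicate 1, without knockout replicate 2, without control replicate 2 or without control replicate 3, 1 (Ncf4) without control replicate 1, and 5 without knockout replicate 3, when Cybb and Cyba passed as well. Femoral libraries of the same number deviated together (r of 0.172, 0.180 and 0.115 across genes for numbers 1, 2 and 3), so the numbers were tried as pairing them. Same-numbered control libraries of the 2 vessels had r of 0.108, -0.043 and 0.140, so values of this size do not establish a pairing. The labels do not state one. With the replicate number as a block in both vessels, 5 members rose, Cybb (log2 change 1.08, adjusted p = 0.0106) and Cyba (0.64, adjusted p = 0.00856) among them. This block also covered the carotid libraries, which did not deviate together by title number (r of -0.118 and -0.150). With the block in the femoral artery alone, an alternative added after the data were seen, 4 rose, and Cybb had an adjusted p of 0.0573.

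In the carotid artery no member passed the test: edgeR, DESeq2 and limma-voom each called 0 of 9, and 1 of 9 (Rac2) had an unadjusted p under 0.05 in edgeR. Over all genes, 0.661% were higher at the threshold there. Cybb stood at 184 and 158 CPM in carotid knockout libraries, against 170.3, 91.7 and 81.8 CPM in carotid control libraries, a change of 0.58 ± 0.33 (95% interval -0.15 to 1.31, adjusted p = 0.467). Both knockout libraries were above control replicates 2 and 3, and replicate 1 lay between the knockout libraries. Without carotid control replicate 1 the change of Cybb was 0.98 (adjusted p = 0.148), and that of Ncf1 was 0.40 where all libraries gave 0.14.

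Rac2 had 76.3 and 60.8 CPM in carotid knockout libraries, against 54.9, 37.7 and 42.7 CPM in carotid control libraries. These did not overlap, and the change was 0.60 ± 0.23 (95% interval 0.11 to 1.10, adjusted p = 0.247). Ncf1 had 92.1 and 76.1 CPM in carotid knockout libraries, against 101, 64.7 and 62.5 CPM in carotid control libraries, a change of 0.14 ± 0.28 (adjusted p = 0.87). Ncf4 had 33.9 and 25.0 CPM in carotid knockout libraries, against 32.4, 23.7 and 24.4 CPM in carotid control libraries, a change of 0.13 ± 0.28 (adjusted p = 0.88). For both cytosolic subunits the carotid groups overlapped. Cyba had 149 and 139 CPM in carotid knockout libraries, against 142, 137 and 112 CPM in carotid control libraries, a change of 0.14 ± 0.16 (adjusted p = 0.761).

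Nox4 had 134 and 173 CPM in carotid knockout libraries, against 121, 141 and 123 CPM in carotid control libraries, an overlap with a change of 0.26 ± 0.17 (adjusted p = 0.534). Rac1 had 320.4 and 298 CPM in carotid knockout libraries, against 329.9, 372 and 359 CPM in carotid control libraries. Its knockout libraries were the lower ones throughout, with a change of -0.19 ± 0.11 (adjusted p = 0.447). Nox1 had 1.26 and 0.626 CPM in carotid knockout libraries, against 1.36, 1.42 and 1.99 CPM in carotid control libraries. These groups did not overlap either, and the change of -0.75 ± 0.39 had a 95% interval of -1.62 to 0.11 (adjusted p = 0.422). Noxo1 had 4.95 and 4.23 CPM in carotid knockout libraries, against 2.35, 3.10 and 4.26 CPM in carotid control libraries, a change of 0.50 ± 0.28 (adjusted p = 0.453). One of the 9 members, Rac2, had all carotid knockout libraries above all carotid controls, beside 16.4% of all genes tested. For Rac1 and Nox1, which were below all carotid controls, the share of all genes in that direction was not counted.

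**Figure D2:**
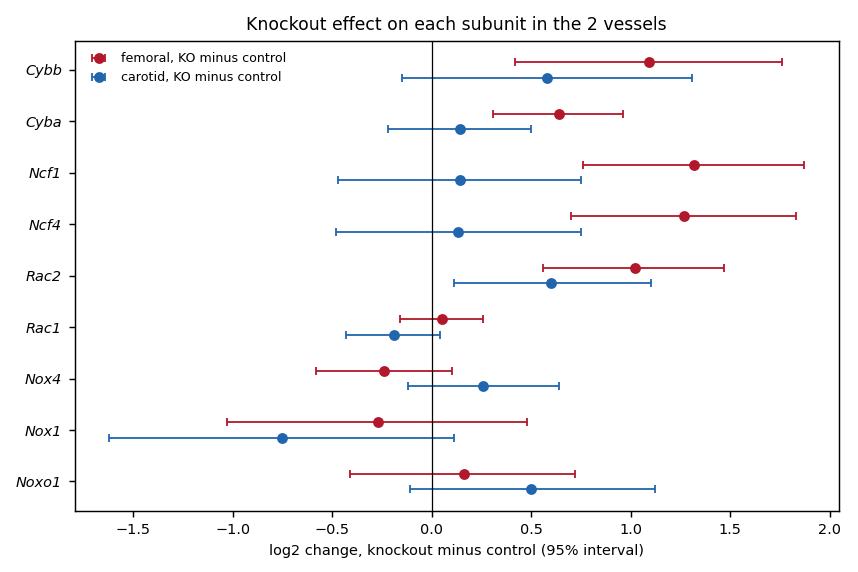
Log2 change (knockout minus control, edgeR) of the 9 members in the femoral artery (red) and the carotid artery (blue), with 95% intervals as bars and a line at 0. The femoral intervals of Ncf1 (0.76 to 1.87), Ncf4, Rac2, Cybb and Cyba lie above 0, and of the carotid intervals only that of Rac2 does.

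The difference between the vessels in the response to the knockout was tested directly. Ncf1 had a carotid effect lower than its femoral effect by 1.17 on the log2 scale (-1.17 ± 0.38, unadjusted p = 0.0101, adjusted p = 0.487) and Ncf4 one of -1.13 ± 0.38 (adjusted p = 0.489). Cyba had -0.50 ± 0.22 (adjusted p = 0.584), while Nox4 had 0.50 ± 0.23 in the other direction (adjusted p = 0.589). The difference was -0.51 ± 0.45 for Cybb and -0.41 ± 0.31 for Rac2. No member was called by edgeR, DESeq2 or limma-voom, 3 of 9 (Cyba, Ncf1 and Ncf4) had an unadjusted p under 0.05 in edgeR, and 0.00469% of all genes were called in either direction. Ncf1, Ncf4 and Rac2 thus passed the test in the femoral and not in the carotid artery, and a difference between the vessels was not shown. Averaged over both vessels, Rac2 rose by 0.81 ± 0.15 (adjusted p = 0.0146) and Ncf1 by 0.73 ± 0.18 (adjusted p = 0.0446), beside 4.31% of all genes. Cybb (0.84 ± 0.22, adjusted p = 0.0525), Ncf4 (0.70 ± 0.19, adjusted p = 0.0525) and Cyba (0.39 ± 0.11, adjusted p = 0.0632) did not pass. With the block in the femoral artery alone these passed as well, with adjusted p of 0.0369 for Cybb, 0.0142 for Ncf4 and 0.0252 for Cyba. The call of Ncf1 in this average was lost in 10 of 20 alternatives, and that of Rac2 without carotid knockout replicate 1 only.

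Nox4 differed between the vessels in both genotypes. It was 1.69-fold higher in carotid control than in femoral control libraries (log2 0.76 ± 0.15, 95% interval 0.42 to 1.10, adjusted p = 0.0159) and 2.40-fold higher in carotid knockout than in femoral knockout libraries (1.26 ± 0.17, 95% interval 0.89 to 1.64, adjusted p = 0.00244). The 5 carotid libraries stood at 121 to 173 CPM, and the 6 femoral libraries at 51.1 to 81.9 CPM, so no carotid library reached down to a femoral one. No other member was called between the vessels, although some did not overlap. Noxo1 was higher in every carotid knockout than in any femoral knockout library (0.69 ± 0.28, adjusted p = 0.197). Ncf4 and Rac1 were lower in every carotid knockout library, Rac1 by a log2 difference of -0.23 ± 0.11 (adjusted p = 0.254). The share of all genes that were lower without overlap was not counted. In control arteries 2.99% of all genes were higher in the carotid artery at the threshold and 11.7% had all carotid libraries above all femoral ones, while in knockout arteries these shares were 3.05% and 18.6%. The call in control arteries was lost without femoral control replicate 2, without carotid control replicate 2 and with skeletal muscle markers as a covariate (0.83 ± 0.20, adjusted p = 0.0691), and the call in knockout arteries stood in all 20 alternatives.

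Among the phagocyte subunits, Ncf1 was 0.65 ± 0.25 higher in carotid control than in femoral control libraries without overlap, at 62.5 to 101 CPM against 39.9 to 54.8 CPM (adjusted p = 0.168). In knockout arteries the sign was the opposite, with Ncf1 at -0.52 ± 0.28 and Ncf4 at -0.83 ± 0.29 in the carotid relative to the femoral artery, and neither passed the test (adjusted p = 0.341 and 0.139). Rac1 differed by 0.01 ± 0.09 between control vessels. Smooth muscle genes summed to 8291 to 13461 CPM in carotid control libraries and to 13276 to 15633 CPM in femoral control libraries, with 0 of 10 higher and 1 (Des) lower, beside 3.22% of all genes lower. Schwann cell genes summed to 90.7 to 1107 CPM in carotid control libraries, against 49.4 to 62.4 CPM in femoral control libraries, with 2 of 6 higher (Mbp and Ncmap). Skeletal muscle genes summed to 57.6 to 700.0 CPM in carotid control libraries, against 619 to 5430.3 CPM in femoral control libraries, with 2 of 10 lower (Eno3 and Pygm). Fibroblast genes had 1 of 10 higher and 2 lower (Pi16, Lum and Dcn were those called), beside 2.99% of all genes higher. Endothelial genes had 3 of 10 lower (Nos3, Sox18 and Cldn5), and adipocyte genes had 2 of 8 lower (Cfd and Retn). No marker of these lists was at 0 in a whole group, and their part in the Nox4 difference was not tested.

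Per kilobase of the gene length in the deposited table, the order of the members was led in every group by the shared subunits. Cyba averaged 222 and 143 CPM per kb in femoral knockout and femoral control libraries, and 189 and 172 CPM per kb in carotid knockout and carotid control libraries. Rac1 averaged 148 and 143 CPM per kb in the same femoral groups and 126 and 144 CPM per kb in the carotid groups. Cyba was above Rac1 without overlap in both knockout groups, and the 2 genes overlapped in both control groups. Next in femoral knockout libraries came Cybb at 44.6, Ncf1 at 40.6, Ncf4 at 32.2 and Rac2 at 28.0 CPM per kb, where each overlapped its neighbour. Nox4, at 13.9 CPM per kb, stood below all of these without overlap. In femoral control libraries Nox4, at 16.4 CPM per kb, stood between Cybb at 20.9 and Ncf1 at 16.3 and overlapped both. In carotid knockout libraries Cybb and Nox4 averaged 35.6 and 33.2 CPM per kb, and in carotid control libraries Nox4 came next at 27.8, above Ncf1 at 25.7 and Cybb at 23.9, all with overlap between neighbours. Noxo1 at 0.846 to 1.53 and Nox1 at 0.324 to 0.555 CPM per kb were lowest in each group, and they overlapped each other in femoral control libraries only.

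**Figure D3:**
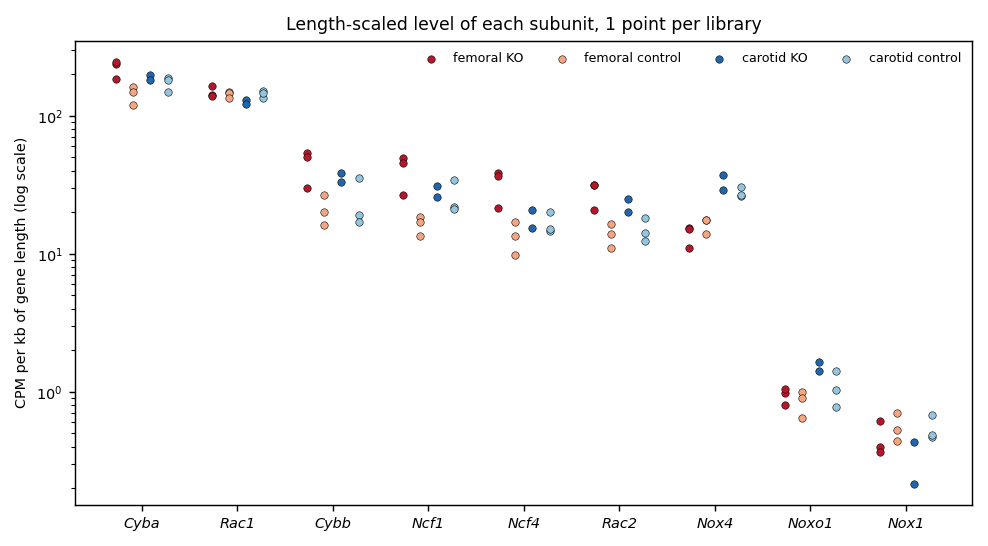
Level of each member per kilobase of gene length (log axis, CPM per kb, 1 point per library, colours as in the key with knockout before control in each vessel). Cyba and Rac1 lie above 100, Noxo1 and Nox1 lie lowest, and Nox4 lies below the phagocyte subunits in femoral knockout libraries and among or above them in carotid libraries.

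The balance of the catalytic subunits was compared within each library, where depth cancels. Of the summed level per kilobase of Nox1, Cybb, Nox3, Nox4, Duox1 and Duox2, Cybb took 81.7, 75.5 and 65.3% in femoral knockout libraries, against 59.1, 56.8 and 45.9% in femoral control libraries. Nox4 took 16.9, 23.1 and 32.9% in femoral knockout libraries, against 38.8, 39.8 and 50.3% in femoral control libraries. The shares of the pair did not overlap between the femoral groups. The pair made up nearly all of the sum, so a higher share of Cybb lowers that of Nox4, and the shares are not separate results. The level of Nox4 itself overlapped between the femoral groups (-0.24 ± 0.15, adjusted p = 0.425). In the carotid artery Cybb took 55.9 and 46.4% in knockout libraries, against 56.6, 37.6 and 37.9% in control libraries, and Nox4 took 42.2 and 52.7% in knockout libraries, against 41.9, 60.1 and 59.2% in control libraries, both with overlap. Nox1 took 0.303 to 1.99% of the sum in the 11 libraries. Nox3, an oxidase of the inner ear, had 1 count in 1 library and 0 in the others, where a count of 0 allows up to 3.

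The ratio of Cybb to Nox4 per kilobase was 4.84, 3.27 and 1.99 in femoral knockout libraries, against 1.52, 1.43 and 0.912 in femoral control libraries. It was 1.32 and 0.880 in carotid knockout libraries, against 1.35, 0.626 and 0.641 in carotid control libraries. The femoral groups were apart by 1.33 on the log2 scale (2.51-fold), and the carotid groups, 0.40 apart, overlapped. The other phagocyte subunits relative to Nox4 also had every femoral knockout library above every femoral control library, on the log2 scale by 0.89 for Cyba, 1.26 for Rac2 and 1.53 for Ncf1, and 2.84-fold for Ncf4. In the carotid artery each of these 4 ratios overlapped, with differences of -0.10 for Cyba, 0.36 for Rac2, -0.12 for Ncf4 and -0.08 for Ncf1. Relative to Nox1, Cybb was 1.36 higher in the femoral knockout and 1.46 higher in the carotid knockout without overlap in either vessel, on 32 to 109 counts of Nox1 per library. These ratios describe unequal change and carry no test. Ratios to the same oxidase share its counts, and the levels of these subunits were already apart in the femoral libraries, so the femoral separations are not independent results. The share of all genes set apart in this way was not counted.

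**Figure D4:**
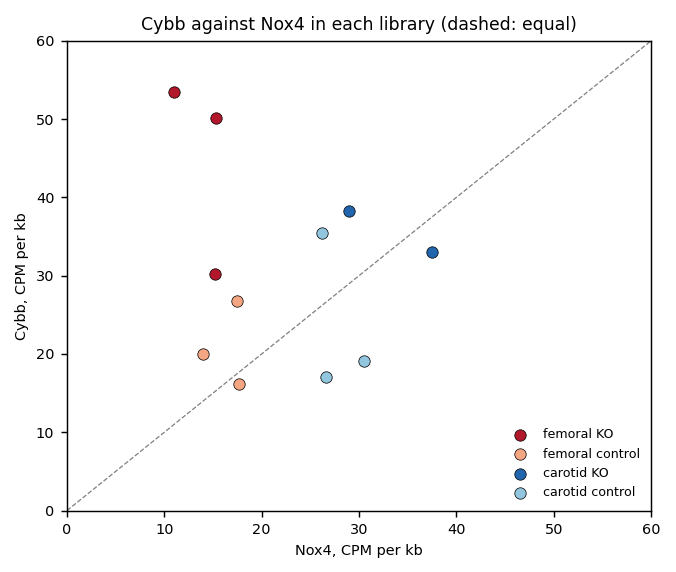
Cybb (vertical axis) against Nox4 (horizontal axis) in CPM per kilobase, 1 point per library, with a dashed line where the 2 are equal. The 3 femoral knockout libraries lie well above the line (ratios of 1.99 to 4.84), the femoral controls lie near it, and the carotid libraries lie to the right on both sides of it.

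The 4 subunits Cybb, Ncf1, Ncf4 and Rac2 were close to each other across the 11 libraries. After each gene was centred on its mean, the root mean square difference in log2 CPM was 0.166 between Cybb and Rac2, 0.184 between Ncf1 and Ncf4 and 0.204 between Ncf4 and Rac2. Cyba was 0.264 from Rac2 and 0.314 from Rac1, and Nox4 was 0.427 from Noxo1 and 0.875 from Cybb. The nearest genes by this measure were sought among 11685 genes with a mean of at least 5 CPM. For Cybb they were Atp8b4 (0.102), Plek (0.129) and Igsf6 (0.130), where the median over all compared genes was 0.624. For Rac2 they were Vav1 (0.086), a Rac exchange factor of blood cells, Arhgap9 (0.087) and Lcp2 (0.095), with a median of 0.542. For Ncf1 they were Ptafr (0.128), the receptor of platelet-activating factor, Pstpip2 (0.151) and Nfam1 (0.154), and for Ncf4 they were Naip5 (0.115), Cyp4f18 (0.117) and Hcls1 (0.143). Cyba was nearest to Crlf3 (0.080), Stxbp2 (0.094) and Slc9a3r1 (0.095), with a median of 0.354. Its distance of 0.314 from Rac1 was thus little below that median. Nox4 was nearest to Atoh8 (0.142), Plcb4 (0.150) and Thrb (0.164), with a median of 0.567. The nearest genes of Nox1 were Rpl34 (0.197), Psmb5 (0.230) and Gemin6 (0.235), at a low level where counting error takes part in the distance.

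Genes that act with the oxidase were followed in lists. Of 11 tested genes of the other oxidase list, which holds further catalytic subunits, maturation factors and scaffolds, 0 were called in either vessel by edgeR. In the femoral artery 3 of the 11 had an unadjusted p under 0.05, DESeq2 called 1 higher and limma-voom 0, and in the carotid artery these counts were 1, 1 and 0. Hvcn1, the proton channel that balances the charge moved by the phagocyte oxidase, rose by 0.75 ± 0.14 averaged over both vessels (adjusted p = 0.0138). It had 39.4, 36.1 and 26.4 CPM in femoral knockout libraries, against 23.4, 20.3 and 22.6 CPM in femoral control libraries, and its change was 0.62 ± 0.19 in the femoral and 0.88 ± 0.21 in the carotid artery. The groups did not overlap in either vessel.

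Of 16 Rac activators and oxidase kinases, 5 rose and 0 fell in the femoral artery, with a median log2 change of 0.63 over the list, beside 1.84% of all genes higher and a median of -0.02 over all genes. They were the exchange factors Vav1 (1.02 ± 0.22, adjusted p = 0.0446), Prex1 (0.86 ± 0.19, adjusted p = 0.0465) and Dock2 (1.01 ± 0.20, adjusted p = 0.0358), and the phosphoinositide 3-kinases Pik3cg (adjusted p = 0.0404) and Pik3cd (adjusted p = 0.047). Vav1 stood at 84.3, 80.4 and 48.4 CPM in femoral knockout libraries, against 40.6, 34.2 and 30.5 CPM in femoral control libraries, with knockout replicate 3 the lowest of its group as it was for the subunits. Prkcb, a kinase of Ncf1, was called in the average over both vessels alone (0.68 ± 0.14, adjusted p = 0.022). Of the 16, 0 were called in the carotid artery by edgeR, DESeq2 or limma-voom, and 4 had an unadjusted p under 0.05.

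Of 17 receptors that start oxidase assembly or induce its subunits, 4 rose and 0 fell in the femoral artery, with a list median of 0.79, again beside 1.84% of all genes higher. Fpr2, a formyl peptide receptor, had 25.0, 37.4 and 14.1 CPM in femoral knockout libraries, against 7.99, 3.62 and 2.74 CPM in femoral control libraries, a rise of 2.41 ± 0.48 (adjusted p = 0.0358). Clec7a, the beta-glucan receptor, rose by 2.09 ± 0.47 (adjusted p = 0.048), Itgam, the integrin chain of complement receptor 3, by 0.99 ± 0.22 (adjusted p = 0.0446), and C5ar1, the C5a receptor, by 0.79 ± 0.16 (adjusted p = 0.0393). In the carotid artery 0 of 17 were called by any of the 3 tools, and 4 had an unadjusted p under 0.05. For the mean effect 4 receptors rose, namely Fpr1, Fpr2, Tlr2 (0.82 ± 0.21, adjusted p = 0.0446) and Itgb2 (0.78 ± 0.20, adjusted p = 0.0442), while Clec7a, Itgam and C5ar1 did not pass, beside 4.31% of all genes higher. For the carotid artery alone 16 of the 17 changes were positive and 1 was negative, with a list median of 0.25. Itgam changed there by 0.00 ± 0.24 and C5ar1 by -0.02 ± 0.18. Of the phagocyte subunits, Cyba and Ncf1 changed there by 0.14, Ncf4 by 0.13, Cybb by 0.58 and Rac2 by 0.60.

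Of 15 genes that remove superoxide and peroxide, Sod2, the mitochondrial dismutase, rose by 0.90 ± 0.16 (adjusted p = 0.0253) and Prdx5 by 0.65 ± 0.14 (adjusted p = 0.0427) in the femoral artery, beside 1.84% of all genes higher, and the median of the list was -0.12. Sod2 had 167, 209 and 149 CPM in femoral knockout libraries, against 104, 103 and 74.3 CPM in femoral control libraries. Of 9 genes that feed cytosolic NADPH, Hk2 alone rose (0.70 ± 0.14, adjusted p = 0.0388), with a list median of 0.33. Of these lists 0 of 15 and 0 of 9 were called in the carotid artery by edgeR, DESeq2 or limma-voom, with 2 and 0 at an unadjusted p under 0.05.

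Some leukocyte markers also rose in the femoral artery. Of 8 pan-leukocyte genes, 5 rose in the femoral artery (Laptm5, Coro1a, Spi1, Cd52 and Fermt3, list median 0.98), beside 1.84% of all genes, and the 8 genes summed to 1440.1 to 2232 CPM in femoral knockout libraries, against 799 to 1191 CPM in femoral control libraries. Of the same genes 0 of 8 were called in the carotid artery by any of the 3 tools, 0 had an unadjusted p under 0.05, and the sums were 1170.3 to 1584 CPM in knockout libraries, against 907 to 1406 CPM in control libraries, with control replicate 1 the highest of the controls as it was for Cybb. Macrophage genes had 1 of 15 higher (Csf1r, 0.83 ± 0.19, adjusted p = 0.0472) and summed to 4003 to 6411 CPM in femoral knockout libraries, against 3146 to 4063 CPM in femoral control libraries, and to 4738 and 6255 CPM in carotid knockout libraries, against 4070.1 to 6224 CPM in carotid control libraries. Monocyte genes had 1 of 8 higher (Ccr2) and summed to 841 to 1382 CPM in femoral knockout libraries, against 546 to 690.4 CPM in femoral control libraries, and to 795 and 1114 CPM in carotid knockout libraries, against 791 to 1002 CPM in carotid control libraries. Neutrophil genes had 0 of 14 called by edgeR in the femoral artery (7 at an unadjusted p under 0.05, 4 higher by DESeq2, 0 by limma-voom) and summed to 194 to 583 CPM in knockout libraries, against 80.6 to 191 CPM in control libraries, and to 276 and 415 CPM in carotid knockout libraries, against 103 to 317 CPM in carotid control libraries. Of these 14 genes, 9 had a positive and 5 a negative femoral change. The neutrophil marker Ly6g, at a low level, had 15 to 64 counts in femoral knockout libraries (0.311 to 1.44 CPM). It had 0 counts in 2 of 3 femoral control libraries and 8 in the other.

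Some lymphocyte genes rose in both vessels, where 1.84% of all genes were higher in the femoral and 0.661% in the carotid artery. Of 12 T and NK cell genes, 6 rose in the femoral and 7 in the carotid artery, and the 12 summed to 65.1 to 85.0 CPM in femoral knockout libraries, against 17.9 to 36.5 CPM in femoral control libraries, and to 62.4 and 70.6 CPM in carotid knockout libraries, against 12.0 to 18.4 CPM in carotid control libraries. Of 8 B and plasma cell genes, 3 rose in the femoral and 4 in the carotid artery, and the 8 summed to 73.4 to 204 CPM in femoral knockout libraries, against 16.4 to 28.5 CPM in femoral control libraries, and to 118 and 144 CPM in carotid knockout libraries, against 8.98 to 15.1 CPM in carotid control libraries. Cd3e rose by 1.82 ± 0.27 in the femoral artery (adjusted p = 0.0107) and by 2.73 ± 0.30 in the carotid artery (adjusted p = 0.00258), where Ncf1 changed by 0.14 ± 0.28.

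Of the wall and neighbouring cells, 0 of 10 smooth muscle, 0 of 8 adipocyte and 0 of 6 Schwann cell genes were called in the femoral artery by edgeR, DESeq2 or limma-voom. In each of these lists 0 genes had an unadjusted p under 0.05. The smooth muscle changes were 0 positive and 10 negative, with a median of -0.27. These genes summed to 8215 to 14788 CPM in femoral knockout libraries, against 13276 to 15633 CPM in femoral control libraries, with overlap. Adipocyte changes were 2 positive and 6 negative, and Schwann cell changes 4 positive and 2 negative. Endothelial genes had 0 of 10 called by edgeR (5 at an unadjusted p under 0.05, 2 lower by DESeq2, 0 by limma-voom). Their changes were 1 positive and 9 negative, with a median of -0.4. Fibroblast genes had 2 of 10 lower (Cd34 and Mfap5), beside 0.665% of all genes lower. Skeletal muscle genes had 0 of 10 called by edgeR (2 at an unadjusted p under 0.05, 2 lower by DESeq2, 0 by limma-voom) with a median of -2.05, and they summed to 211, 1549 and 425 CPM in femoral knockout libraries, against 619, 5430.3 and 3032 CPM in femoral control libraries. With these genes as a covariate no member was called in the femoral artery, although Ncf1 changed by 1.25 ± 0.28 (adjusted p = 0.0857), Rac2 by 0.97 ± 0.23 (adjusted p = 0.0958) and Ncf4 by 1.17 ± 0.27 (adjusted p = 0.093). Of 5 tested colon epithelium genes, listed because Nox1 and Noxo1 are high in colon, 1 (Cdh1) rose in the femoral artery, beside 1.84% of all genes higher. The list of 6 summed to 11.5 to 12.9 CPM in femoral knockout libraries, against 2.59 to 2.95 CPM in femoral control libraries, with 1 gene at 0 in each of these groups. Most of these sums was Cdh1, with means of 11.2 and 2.46 CPM, while Epcam averaged 0.368 and 0.0638 CPM. None of the leukocyte, smooth muscle or skeletal muscle markers was at 0 in a whole group, and the part of these cells in the changes of the subunits was not tested.

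Each phagocyte subunit was also set against Ptprc, the gene of the leukocyte antigen CD45, within each library. The log2 ratio of Cybb counts to Ptprc counts was -0.43 to -0.39 in femoral knockout libraries, against -0.54 to -0.42 in femoral control libraries, and -0.36 and -0.06 in carotid knockout libraries, against -0.46 to -0.16 in carotid control libraries. Rac2 was at -1.82 to -1.59 in femoral knockout libraries, against -1.90 to -1.64 in femoral control libraries. The groups overlapped for both, with mean femoral differences of 0.09 for Cybb and 0.02 for Rac2, where the log2 changes of the levels were 1.09 and 1.02. For Cyba the mean difference was -0.35 in the femoral and -0.39 in the carotid artery, again with overlap. Against Ptprc, Ncf1 and Ncf4 stood apart from these. Ncf1 was at -1.27 to -1.19 in femoral knockout libraries, against -1.76 to -1.38 in femoral control libraries, and at -1.36 and -1.12 in carotid knockout libraries, against -0.90 to -0.85 in carotid control libraries. Ncf4 was at -2.46 to -2.43 in femoral knockout libraries, against -2.76 to -2.67 in femoral control libraries, and at -2.80 and -2.72 in carotid knockout libraries, against -2.55 to -2.20 in carotid control libraries. For these cytosolic subunits the ratio was thus higher in every femoral knockout library and lower in every carotid knockout library than in the controls of the same vessel. This did not hold relative to Csf1r, the macrophage growth factor receptor, where the carotid changes were 0.08 for Ncf1 and 0.05 for Ncf4. Nor did it hold relative to Csf3r, a granulocyte receptor, where they were -0.67 and -0.71 beside femoral changes of -0.38 and -0.41. All of these overlapped. For Cybb and Rac2 the result depended on the marker. Relative to the macrophage gene Cd68 they were 0.51 and 0.45 higher in the femoral knockout without overlap, and 0.17 and 0.13 in the carotid with overlap. Relative to Csf1r the femoral changes were 0.27 and 0.20 with overlap, and the carotid ones 0.57 and 0.53 without. Relative to Csf3r the femoral changes were -0.58 without overlap for Cybb and -0.65 with overlap for Rac2.

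**Figure D5:**
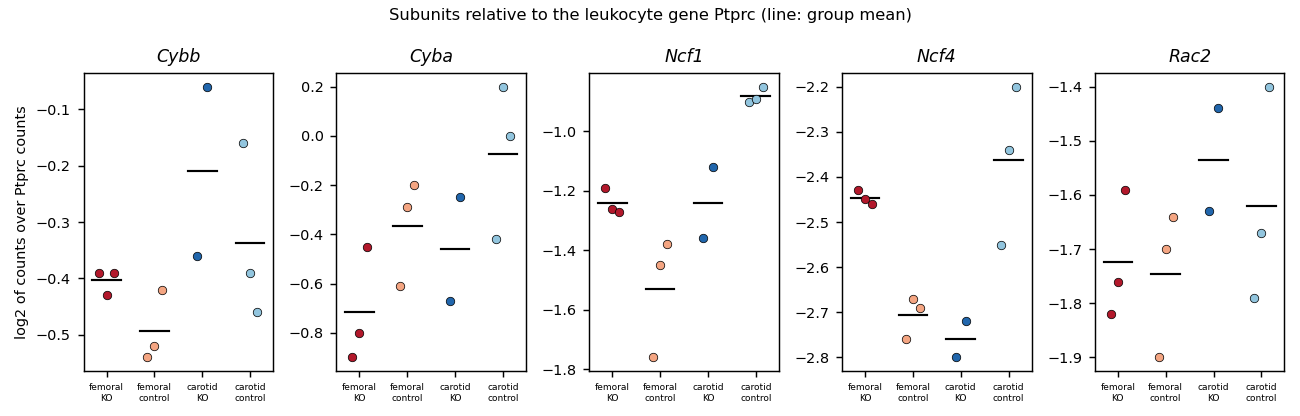
Log2 of the counts of each phagocyte subunit over the counts of Ptprc (vertical axes differ between panels, 1 point per library, line at the group mean), with knockout left of control in each vessel. Ncf1 and Ncf4 are higher in femoral knockout than in femoral control libraries and lower in carotid knockout than in carotid control libraries, while Cybb and Rac2 overlap between knockout and control.

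Reads that fit more than 1 gene limit some members. Of the stretches of 50 bases in a gene's GENCODE M21 transcripts, 58.5% of those of Noxo1 were shared with transcripts of Tbl3, 50.29% of those of Rac1 with Daglb, and 10.44% of those of Nox1 with Cstf2. Cybb and Ncf4 shared none, Nox4 0.71%, Rac2 1.29%, Cyba 2.39% and Ncf1 7.45%, of which nearly all lay in Gtf2ird2. Nox1 overlaps Cstf2 on the opposite strand by 402 bases, and Cstf2 had 1110 to 1441 counts per library where Nox1 had 32 to 109. In the deposited coordinates Noxo1 lies 122 bases from Tbl3, which had 1458 to 2258 counts where Noxo1 had 96 to 240. Rac1 lies 1038 bases from Daglb, which had 1180 to 2371 counts where Rac1 had 15160 to 19701. Because no source used here states whether counting used strand, the low values of Nox1 and Noxo1 are uncertain in size. The phagocyte subunits, at 873 to 12163 counts per library for Cybb, Ncf1, Ncf4 and Rac2, had more counts than these.

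The dual oxidases, which make hydrogen peroxide at epithelial surfaces and were named after their values were seen, divided the vessels in opposite directions. Duox1 had 214 and 124 counts in carotid knockout libraries, against 30, 12 and 14 counts in femoral knockout libraries, and 126, 179 and 173 counts in carotid control libraries, against 32, 19 and 50 counts in femoral control libraries. Duox2 had 11 and 2 counts in carotid knockout libraries, against 115, 69 and 125 counts in femoral knockout libraries, and 4, 8 and 1 counts in carotid control libraries, against 93, 129 and 243 counts in femoral control libraries. Duox1 was higher in the carotid artery by 2.23 ± 0.42 among controls (adjusted p = 0.0101) and by 3.09 ± 0.46 among knockouts (adjusted p = 0.00417), while Duox2 was lower there, by a log2 difference of -5.13 ± 0.69 among controls (adjusted p = 0.00167) and -4.03 ± 0.77 among knockouts (adjusted p = 0.0141). Of their maturation factors, Duoxa1 was higher in carotid knockout than in femoral knockout libraries (2.65 ± 0.50, adjusted p = 0.0137) and did not pass among controls (1.30 ± 0.46, adjusted p = 0.135), and Duoxa2 had 0 or 1 counts in the carotid libraries and 24 to 78 counts in the femoral ones. Among the 11 tested genes of the other oxidase list these were 1 higher and 2 lower in control arteries, and 2 higher and 2 lower in knockout arteries, where 1.86% of all genes were lower in the carotid artery. Neither dual oxidase was called for the knockout in either vessel.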

How the data were processed

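Per the labels' protocols, polyadenylated RNA was extracted with Trizol or Magzol reagents and sequenced as paired 150-base reads. The deposited values are raw counts per gene with a gene length, and the authors' pipeline names HISAT2, HTSeq, DESeq, DESeq2 and edgeR, per the submitters' processing notes, with no role or version given there. Those notes list mm9, although the coordinates of 99.8% of 39064 genes joined by ID overlap GRCm38, which is used here. Whether counting used strand is not given in the sources used here. Spreadsheet dates had replaced 27 symbols, which were restored by gene ID.

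Genes were filtered with filterByExpr, scaled by TMM and fitted in edgeR 4.0.16 (quasi-likelihood, R 4.3.3) with 1 mean per group over the 11 libraries and 7 residual degrees of freedom. P-values were adjusted by Benjamini-Hochberg over the 21343 genes tested and called under 0.05. The common biological coefficient of variation was 25.6%, and totals of 43698644 to 55998563 counts were deposited per library. No 2 libraries of the same group agreed within sampling noise in the 10 pairs compared. The test was run on simulated counts first. DESeq2 1.42.0, limma 3.58.1 (voom), RLE size factors, other filters, 2-group fits, replicate blocks, a covariate of skeletal muscle markers and leaving out each library were tried. Femoral libraries of the same number deviated together (r of 0.172, 0.180 and 0.115), so those pairs are given a blocked value, while carotid ones did not (-0.118 and -0.150 by title). Ratios within a library add 0.5 counts to each gene, and log2 CPM used a prior count of 2. Likeness is the root mean square difference of centred log2 CPM over the 11 libraries. Named are all members and Nfe2l3, for 7 members the 3 genes nearest by likeness, from each pathway list the genes called for the knockout (at most 6 by smallest p, otherwise the 1 of smallest p), and from each cell list at most 3 by smallest p in the mean effect. The other called genes of cell lists, Ptprc, Cd68, Trim5, Ddx3y and the dual oxidases were chosen after their values were seen. The members and lists were chosen with earlier results of these data known. Figures were drawn with matplotlib 3.10.9. The floor of 3 counts covers counting error only. A further gene of the pathway is not reported here.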

Additional observations from a re-analysis of the deposited data

Results flagged for a closer look

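Within-library ratios of Ncf1 and Ncf4 to Ptprc and to Cd68 moved in opposite directions in the vessels: every femoral knockout library was above every femoral control library, and every carotid knockout library was below every carotid control library. The 4 ratios were picked for this separation, and the difference itself was not tested. For log2 Ncf1 over Ptprc the knockout effect in the carotid artery (-0.36) minus that in the femoral artery (0.29) was -0.65. For Ncf4 over Ptprc it was -0.66, from effects of -0.40 in the carotid and 0.26 in the femoral artery. Against Cd68, a lysosomal gene of macrophages, the difference was -1.02 for Ncf1, which was at 0.15 to 0.53 in femoral knockout libraries, against -0.37 to -0.26 in femoral control libraries, and at -0.58 and -0.47 in carotid knockout libraries, against -0.29 to -0.11 in carotid control libraries. For Ncf4 over Cd68 it was -1.04, with effects of -0.35 in the carotid and 0.69 in the femoral artery. The other 2 leukocyte genes used did not show this. Relative to Csf1r the femoral and carotid changes were 0.47 and 0.08 for Ncf1 and 0.44 and 0.05 for Ncf4, and relative to Csf3r they were -0.38 and -0.67 for Ncf1 and -0.41 and -0.71 for Ncf4, with overlap in each case except Ncf1 over Csf1r in the femoral artery. Cybb, Cyba and Rac2 had no such opposite pair against Ptprc. The 4 ratios share libraries and genes and are not independent of each other.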

How the results depend on the processing

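The numbers of genes called depended on the setting more than the log2 changes did, and the cause was not tested. In the femoral artery 3 members and 535 genes were called. Without a filter on low counts these were 5 and 1121, by DESeq2 5 and 1834, with the replicate block by title number 5 and 1224, with the block by library number 5 and 1261, and with the skeletal muscle covariate 0 and 117. Leaving out 1 library gave 0 to 5 members and 78 to 1317 genes. For the carotid artery 197 genes were called, 444 without the filter, 990 by DESeq2, 26 with the libraries of the 2 groups alone, 78 with the title block, and 60 to 233 with 1 library left out. For the difference between the vessels' effects 1 gene was called, 17 without the filter, 171 by DESeq2, 9 with the title block, 3 with the library block, and 0 by limma-voom, with the block in the femoral artery alone or with the covariate, and 0 to 3 with 1 library left out. For the mean effect 2 members and 1347 genes were called. Without the filter, by DESeq2 and with each of the 3 blocks 5 members were called, and with the covariate 1, while the genes were 2609 by DESeq2 and 580 with the covariate. Leaving out 1 library gave 0 to 5 members and 474 to 1818 genes.

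Between control vessels 1 member and 1326 genes were called, 2 members with either block, 0 members and 507 genes with the covariate, 2314 genes by DESeq2, and 0 to 1 members and 685 to 1408 genes with 1 library left out. Between knockout vessels 1 member and 1047 genes were called, 2 members and 2085 genes by DESeq2, 3 members with the title block, 578 genes with the libraries of the 2 groups alone, 594 genes with the covariate, and 1 to 2 members and 459 to 1182 genes with 1 library left out. Same-numbered libraries of different vessels or of the carotid groups were not read as paired.

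Values near 0 changed sign. With the covariate the control vessel difference was -0.01 for Cybb, -0.05 for Rac1 and 0.04 for Nox1. The mean effect of Nox4 was -0.00 by limma-voom and -0.02 with the title block. With 1 library left out, control vessel differences ran over -0.21 to 0.40 (Cybb), -0.02 to 0.06 (Rac1), -0.06 to 0.25 (Rac2) and -0.21 to 0.18 (Nox1). Carotid changes ran over -0.01 to 0.40 (Ncf1) and -0.11 to 0.33 (Ncf4), the femoral change of Rac1 over -0.01 to 0.10, the mean effect of Nox4 over -0.09 to 0.09, and the difference of effects of Nfe2l3 over -0.07 to 2.50. Every femoral change of Cybb, Cyba, Ncf1, Ncf4 and Rac2 stayed above 0 in all 21 alternatives run.

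The main limits are 2 to 3 libraries per group, 1 injury per vessel, and reads shared with neighbouring genes for Rac1, Nox1 and Noxo1. With 32 to 109 counts, Nox1 cannot show a small difference at this depth.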
